A study of Mus musculus with 2 samples.

Results

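The resistin-like, angiogenin and intelectin genes encode secreted defense proteins, and 8 genes of this kind were followed on 2 arrays of mouse colon RNA. Retnlb, Retnla and Retn belong to the resistin-like family, Ang and Ang4 to the angiogenins, and Itln1, Clca1 and Zg16 encode proteins of the mucus layer. They are 8 of the 22909 genes that could be named on the arrays. The set was chosen by what its members are known to do and with the measured values of these same arrays in view, so their own ratios are a description and were not tested. Membership rested on the RefSeq accession of each probe, which gave 9 probes: 2 for Retn and 1 for each other gene.

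Goblet cells of the colon release mucus together with small proteins that act on bacteria and worms in the lumen, and Paneth cells of the small intestine release a related set. Retnlb, Itln1 and Clca1 are well known as genes that goblet cells switch on under the type 2 cytokines interleukin 4 and interleukin 13, which act through the receptor chain Il4ra and the factor Stat6. Ang4 is a ribonuclease that kills microbes, made by Paneth and goblet cells, and Retnla is best known as a product of macrophages in type 2 responses.

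One array carried RNA from control Villin-Cre mice and the other from EP4 cKO mice (Villin-Cre; EP4flox/flox), both on the C57BL/6 background and, by the study's methods, 8 weeks old. Cre was present in both genotypes. It is driven by the villin promoter and acts in the intestinal epithelium, where it cuts out a floxed part of Ptger4, which encodes the prostaglandin E2 receptor EP4, while other cells of the colon keep the gene. The RNA came from whole colon, and by the labels each array received RNA combined from 3 pools of tissue. In such bulk RNA, fewer cells of a type and less RNA per cell cannot be told apart. With 1 array per genotype there was no replicate check, so no difference below has a p-value or an SD, and every value describes these arrays only.

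Of the 56593 probes used, 25683 (45.4%) were well above background on the Villin-Cre-labelled array and 29177 (51.6%) on the EP4 cKO-labelled array, by the flag of the scanner software, and no spot was saturated. The normalized signal given below is the processed intensity of a probe after each array was scaled to a trimmed mean of 2500, and the log2 ratio is EP4 cKO over Villin-Cre. A probe well above background on 1 array only has a bound, for which its dim side was raised, where it lay below it, to the lowest signal that carried the flag on that array, the floor (125 on the Villin-Cre-labelled array and 57.8 on the other). A gene is represented by its brightest probe. Levels of different probes cannot be compared, because each probe binds with its own strength. Ptger4, the targeted gene, had a normalized signal of 6227 on the Villin-Cre-labelled array and 5661 on the EP4 cKO-labelled array with its brighter probe (log2 ratio -0.14), and 393 and 592 with its dimmer probe (0.59). It was therefore not lower by 2-fold on the EP4 cKO-labelled array, whether its probes lie in the floxed part is not known here, and each direction below rests on the labels of the arrays. Scaling to the E1A spike-in spots turned the brighter probe to a log2 ratio of 0.88 and the dimmer probe to 1.61, the latter more than 2-fold higher.

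Of the 8 genes, 5 (Retnlb, Ang4, Ang, Itln1 and Clca1) were more than 2-fold higher on the EP4 cKO-labelled array, 1 (Retnla) was more than 2-fold lower, 1 (Zg16) lay within 2-fold, and both probes of Retn were too dim on both arrays for a fold. Among all 14668 genes with a value, 4.89% were higher past 2-fold and 7.98% were lower past 2-fold. Since the same contrast was in view when the genes were chosen, nothing is read from the difference between these shares. The median log2 ratio was 3.79 over the 7 of 8 genes with a value and -0.10 over all genes.

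**Figure D1:**
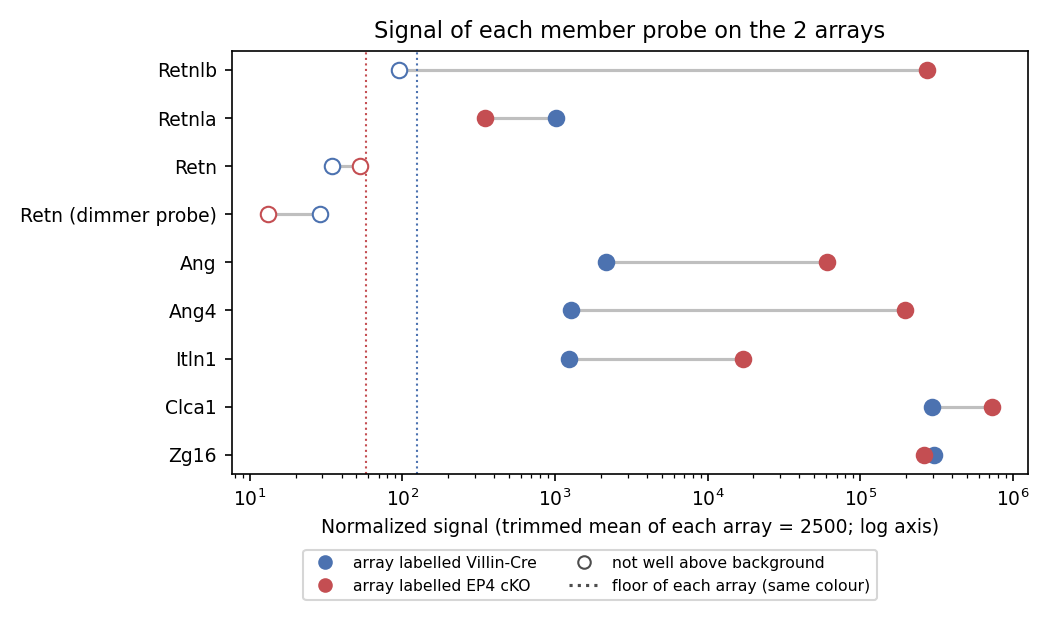
Normalized signal (log axis, trimmed mean of each array 2500) of the 9 probes of the 8 genes, with 1 point per array, filled where the probe was well above background and open where it was not; dotted lines mark the floors of 125 and 57.8. Retnlb crosses nearly the whole axis, from 95.9 to 275441, Ang4, Ang and Itln1 start between 1238 and 2152, Clca1 and Zg16 are bright on both arrays, and both probes of Retn lie below the floors.

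Among the resistin-like genes, Retnlb and Retnla lie next to each other and stood on opposite sides. Retnlb encodes RELM-beta, which goblet cells secrete into the lumen and which binds bacterial membranes. Its normalized signal was 95.9 on the Villin-Cre-labelled array, which is not well above background, and 275441 on the EP4 cKO-labelled array, so it was at least 2197-fold higher (a log2 ratio of at least 11.10). The bound was above the ratio or bound used for each of the other genes, although genes with bounds have no exact rank. The error that the scanner software assigns to a spot was 32.9% of the signal of Retnlb on the Villin-Cre-labelled array and 10% on the other, which covers the spot and not the mice. Under the 6 other scalings and treatments of dim probes the log2 ratio of Retnlb ran from 9.98 to 12.12, so its place past 2-fold did not depend on them.

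Retnla encodes RELM-alpha, a secreted protein of macrophages and of some epithelia. It had a normalized signal of 1014 on the Villin-Cre-labelled array and 347 on the EP4 cKO-labelled array, which is 2.92-fold lower (log2 ratio -1.55). The gene therefore stood opposite to Retnlb, and its ratio lay between the 1st percentile (-1.87) and the 5th percentile (-1.11) of the 24734 probes measured on both arrays. Its log2 ratio was -0.53 with scaling to the E1A spike-in spots and -0.94 after normexp background correction with quantile normalization, both within 2-fold.

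Retn encodes resistin, a hormone of mouse adipocytes. Its brighter probe read 34.7 on the Villin-Cre-labelled array and 52.9 on the EP4 cKO-labelled array, and its dimmer probe 29.0 and 13.1, all of them not well above background, so no fold is given. Retnlg, the remaining gene of the family, which is made mainly by neutrophils and marrow cells, read 29.5 (not well above background) and 103, which lies under the floor of the Villin-Cre-labelled array and gives no fold either. Of the 4 resistin-like genes, 1 was higher and 1 was lower. Retnlb, Retn and Retnlg were all not well above background on the Villin-Cre-labelled array, and without the floor Retnlg was also past 2-fold, which made 2 of the 4 higher.

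The RefSeq table of promoters (build GRCm38.p6) holds entries for Retnla and Retnlg, and their 250 bases before the transcription start are shown because they share a stretch around 1 motif. Each window is read along the strand of its gene, ending at the base before the start. Retnla lies at chr16:48842359-48842608 and Retnlg at chr16:48872358-48872607, both on the plus strand. Capitals mark matches to TTCNNNNGAA, the spaced palindrome that STAT6 prefers, searched on both strands.
Retnla: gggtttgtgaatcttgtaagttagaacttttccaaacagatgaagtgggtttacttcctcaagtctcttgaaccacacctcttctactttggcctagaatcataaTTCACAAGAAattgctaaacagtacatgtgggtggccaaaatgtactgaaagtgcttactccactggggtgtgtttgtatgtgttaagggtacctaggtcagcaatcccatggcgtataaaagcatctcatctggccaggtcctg
Retnlg: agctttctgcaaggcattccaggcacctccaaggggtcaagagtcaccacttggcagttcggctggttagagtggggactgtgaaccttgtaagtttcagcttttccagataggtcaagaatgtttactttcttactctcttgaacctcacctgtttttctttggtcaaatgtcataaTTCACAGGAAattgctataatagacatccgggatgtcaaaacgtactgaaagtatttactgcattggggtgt
The match was TTCACAAGAA in Retnla, 145 to 136 bases before the start, and TTCACAGGAA in Retnlg, 72 to 63 bases before it. Over 175 aligned bases both windows were 78.9% identical. Of all 32851 promoter windows of this length, 5.85% held the motif. A match describes these letters only, and the table holds no entry for Retnlb.

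Both angiogenins of the set were higher. Ang4 had a normalized signal of 1266 on the Villin-Cre-labelled array and 197441 on the EP4 cKO-labelled array, a 156-fold higher level (log2 ratio 7.28). Ang encodes angiogenin, a secreted ribonuclease first known for blood vessel growth. It had 2152 and 60401, a 28.1-fold higher level (4.81). Both were well above background on both arrays, and the error of the scanner software was at most 10.2% of each signal. The log2 ratio of Ang4 ran from 7.28 to 8.30 and that of Ang from 4.74 to 5.82 over the settings tried.

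The other angiogenins on the arrays, which are not among the 8 genes, stood on the same side. Ang2 had a normalized signal of 681 on the Villin-Cre-labelled array and 43323 on the EP4 cKO-labelled array (63.7-fold higher, log2 ratio 5.99), and Ang6 had 4611 and 340386 (73.8-fold higher, 6.21). Thus each of the 4 angiogenin genes with a probe was higher by a log2 ratio of 4.81 or more, while Ang3 and Ang5 had no probe named here. These genes arose by duplication and their transcripts are much alike. The sequences of the probes were not available here, so how far a probe of 1 angiogenin also reads the others was not tested, and the 4 values are not 4 independent measurements.

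Other members of the ribonuclease A family stood apart from the angiogenins. Rnase4, a broadly expressed secreted ribonuclease, had 3281 and 1681 (1.95-fold lower, log2 ratio -0.96, and 0.05 with scaling to the E1A spike-in spots). Rnase9, known from the epididymis, had 688 and 13.0, the latter not well above background, and was at least 11.9-fold lower (a log2 ratio of at most -3.57, which was -1.60 after normexp with quantile normalization and -5.73 without the floor). Rnase10 had a log2 ratio of -0.73 (0.29 with the E1A spike-in spots) and Ear6, of the eosinophil-associated ribonucleases, a bound of 0.17. Rnh1, the ribonuclease inhibitor of the cytosol that binds angiogenin tightly, had 6461 and 7699 (log2 ratio 0.25). Rnase1, Rnase6, Rnase2a, Rnase2b, Rnase11, Rnase12, Rnase13, Ear1, Ear2 and Ear10 were not well above background on either array. In all, 9 of the 22 listed genes had a value, counting Rnh1, which is an inhibitor and not a ribonuclease of the family. Of these 9, 4 were higher, all of them angiogenins, and 1 was lower. With the E1A spike-in spots 6 were higher, because Rnh1 (1.27) and Ear6 (a bound of 1.19) also passed 2-fold.

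The promoter windows of Ang, Ang4 and Ang6 are shown because the genes were higher together, and because the first window of Rnase4 in the table is the same run of bases as that of Ang, 250 of 250 identical. Ang lies at chr14:51090827-51091076 on the plus strand, Ang4 at chr14:51773591-51773840 and Ang6 at chr14:44006419-44006668, both on the minus strand. Capitals mark a match to TTCNNNGAA, the spacing preferred by most other STAT factors.
Ang: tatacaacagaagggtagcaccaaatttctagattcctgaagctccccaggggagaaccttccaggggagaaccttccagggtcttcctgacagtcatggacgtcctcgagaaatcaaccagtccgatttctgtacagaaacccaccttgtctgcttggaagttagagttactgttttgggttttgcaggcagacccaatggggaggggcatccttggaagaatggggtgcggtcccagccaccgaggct
Ang4: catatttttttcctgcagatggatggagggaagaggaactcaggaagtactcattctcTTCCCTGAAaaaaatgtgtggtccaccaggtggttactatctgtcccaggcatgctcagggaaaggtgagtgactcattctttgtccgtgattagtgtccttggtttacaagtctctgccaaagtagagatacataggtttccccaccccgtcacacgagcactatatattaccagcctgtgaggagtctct
Ang6: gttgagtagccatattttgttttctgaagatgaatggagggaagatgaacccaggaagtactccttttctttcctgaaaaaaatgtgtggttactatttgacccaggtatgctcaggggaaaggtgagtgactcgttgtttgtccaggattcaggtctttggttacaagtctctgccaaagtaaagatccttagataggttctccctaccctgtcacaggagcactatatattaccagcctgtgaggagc
Ang4 held 1 match, TTCCCTGAA, 192 to 184 bases before the start, and this motif was found in 7.02% of all windows. Ang and Ang6 held no match to it, to TTCNNNNGAA, to the CDX-type motif TTTATNG or to the NF-kappaB-type motif GGGNNNTTCC. Ang4 and Ang6 were 90.9% identical over 232 aligned bases, and Ang was 77.5% identical to Ang6 over 191 and 69.4% identical to Ang4 over 196. Ang5, which had no probe, has the same 250 bases as Ang6. Hence the shared first window of Ang and Rnase4 went with a log2 ratio of 4.81 for Ang and -0.96 for Rnase4. The second window listed for Rnase4 differs, and holds 1 match to TTTATNG.

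**Figure D2:**
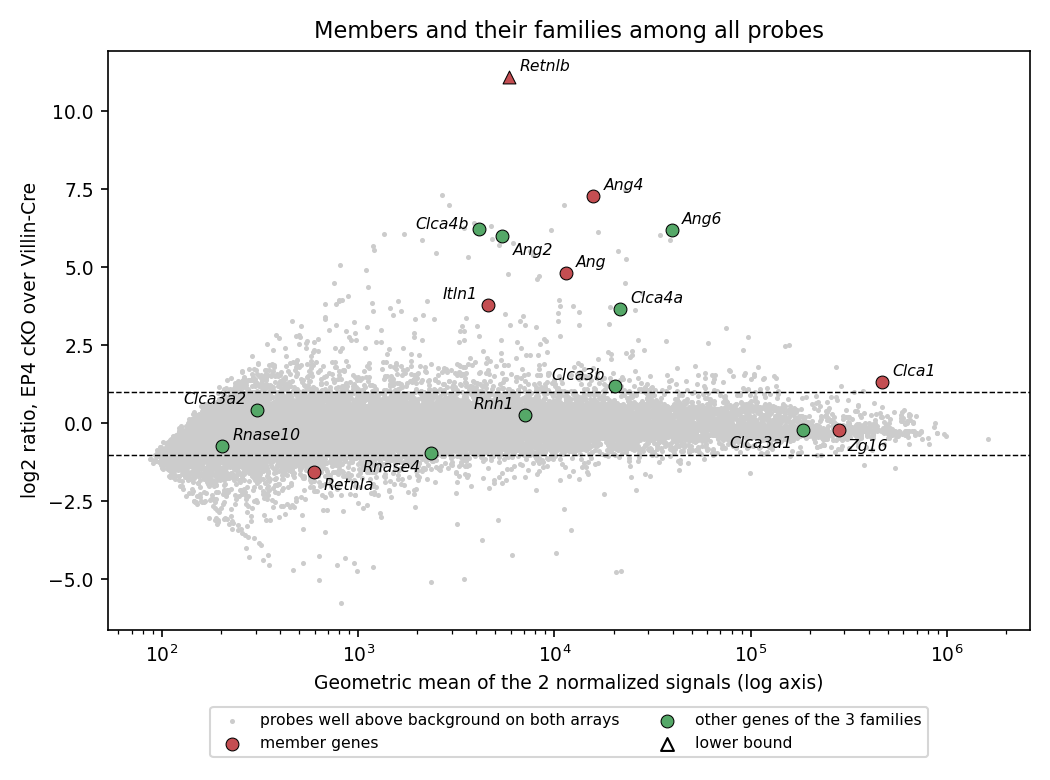
Log2 ratio of EP4 cKO over Villin-Cre against the geometric mean of both normalized signals (log axis). Grey points are 24734 probes with both signals well above background, red points the genes of the set, green points other genes of their families, the triangle a lower bound, and dashed lines 2-fold. Retnlb, Ang4, Ang and Itln1 lie far above the grey band together with Ang2, Ang6, Clca4a and Clca4b, while Zg16 lies inside it at -0.23 and Retnla among its lower points at -1.55.

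Among the genes of the mucus layer, Itln1 differed most. It encodes intelectin 1, a lectin of goblet and Paneth cells that binds sugars found on microbes and not on mammalian cells. Itln1 had a normalized signal of 1238 on the Villin-Cre-labelled array and 17181 on the EP4 cKO-labelled array, which is 13.9-fold higher (log2 ratio 3.79, from 3.72 to 4.81 over the settings). Itlnb, its close relative, had no probe named here. The window before the start of Itln1 is shown because it held a match to TTTATNG, a motif of the intestinal factors CDX1 and CDX2, which Ang, Ang4, Retn and Retnla did not, and it lies at chr1:171535295-171535544 on the minus strand.
Itln1: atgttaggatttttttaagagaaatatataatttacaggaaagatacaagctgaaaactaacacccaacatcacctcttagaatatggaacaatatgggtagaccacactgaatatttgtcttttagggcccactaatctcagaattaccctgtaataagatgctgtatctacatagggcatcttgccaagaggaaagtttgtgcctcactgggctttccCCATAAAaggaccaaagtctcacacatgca
The match, CCATAAA on the strand shown, which is the reverse complement of the motif, lies 30 to 24 bases before the start. The motif was present in 9.81% of all windows, and Cdx1 and Cdx2 themselves had log2 ratios of -0.07 and -0.25.

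Clca1 and Zg16 are secreted in quantity by goblet cells of the normal colon and were bright on both arrays. Clca1 is a metalloprotease that processes the mucin Muc2, and had a normalized signal of 295526 on the Villin-Cre-labelled array and 733436 on the EP4 cKO-labelled array. It was 2.48-fold higher (log2 ratio 1.31, from 1.31 to 2.33 over the settings). Its ratio lay between the 95th percentile (0.78) and the 99th percentile (1.72) of the probes measured on both arrays, whereas those of Ang4, Ang and Itln1 lay above the latter.

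Zg16 is a lectin-like protein that binds the cell wall of Gram-positive bacteria and keeps them off the epithelium. It had 305950 and 261104, which is 1.17-fold lower (log2 ratio -0.23). The sign of this value turned with scaling to the E1A spike-in spots (0.79), and it lay within 2-fold under each setting tried. Thus of both goblet cell genes that were bright on the Villin-Cre-labelled array, Clca1 was past 2-fold on the EP4 cKO-labelled array by a small margin, and Zg16 was not.

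The relatives of Clca1 were not uniform. Clca4b had a normalized signal of 477 on the Villin-Cre-labelled array and 35806 on the EP4 cKO-labelled array (75.1-fold higher, log2 ratio 6.23). Clca4a had 6092 and 76563 (12.6-fold higher, 3.65), and Clca3b had 13425 and 30897 (2.30-fold higher, 1.20). Hence 3 relatives were higher with Clca1, of which Clca4a and Clca4b had larger log2 ratios than Clca1 itself. Clca4a and Clca4b, like Clca3a1 and Clca3a2, are close relatives, and how far a probe of 1 also reads the other was not tested. Clca3a2 had a log2 ratio of 0.41. The 3 probes of Clca3a1 did not agree in sign, with log2 ratios of -0.20, 0.47 and 0.69 from the brightest to the dimmest, and each lay within 2-fold. Clca2 was too dim on both arrays, and Clca4c had no probe named here. Of the 11 listed intelectin, CLCA and ZG16 genes, 8 had a value, 5 of which were higher and 0 lower (median log2 ratio 1.26).

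Retnlb and Retnla, Ang and Ang4, and Clca1 lie beside relatives on their chromosomes, while no relative lies within 3 genes of Itln1 or Zg16. The protein-coding genes around the members other than Retn were looked up in the order of the annotation, with 3 genes on each side. Those around Ang5 and Ang6, which are not members, were looked up in the same way. The 6 regions held 66 genes, and 34 were well above background on at least 1 array. Of these 34, 15 were Retn, Ang, Itln, Clca or Zg16 genes, and 10 of them were higher past 2-fold. These 10 include Retnlb, Ang, Ang4, Itln1 and Clca1, which were chosen with their ratios in view. Not in the set were Ang2, Ang6, Clca3b, Clca4a and Clca4b. Cross-reading of probes was not tested for the angiogenins or for Clca4a and Clca4b. Hence nothing is read from the number of higher family genes beside the counts that follow. Of the other 19 genes, which include Rnase4 and Ear6, 0 were higher past 2-fold and 1 was lower past it, Maz near Zg16 (log2 ratio -1.33), counts that are near the shares of all genes (4.89% and 7.98%). Cip2a had -0.15 and Dzip3, the nearest measured gene beyond Retnlg, had -0.97. Around Itln1, F11r had 0.37 and Cd244a had -0.21, and around the CLCA genes Sh3glb1 had 0.67 and Odf2l had 0.71. The 4 genes Clca3b, Clca4b, Clca4a and Clca1 follow each other and were all past 2-fold. Ang and Ang4 lie in 1 region of chromosome 14 with 14 genes between them, of which Rnase4 and Ang2 had a value.

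**Figure D3:**
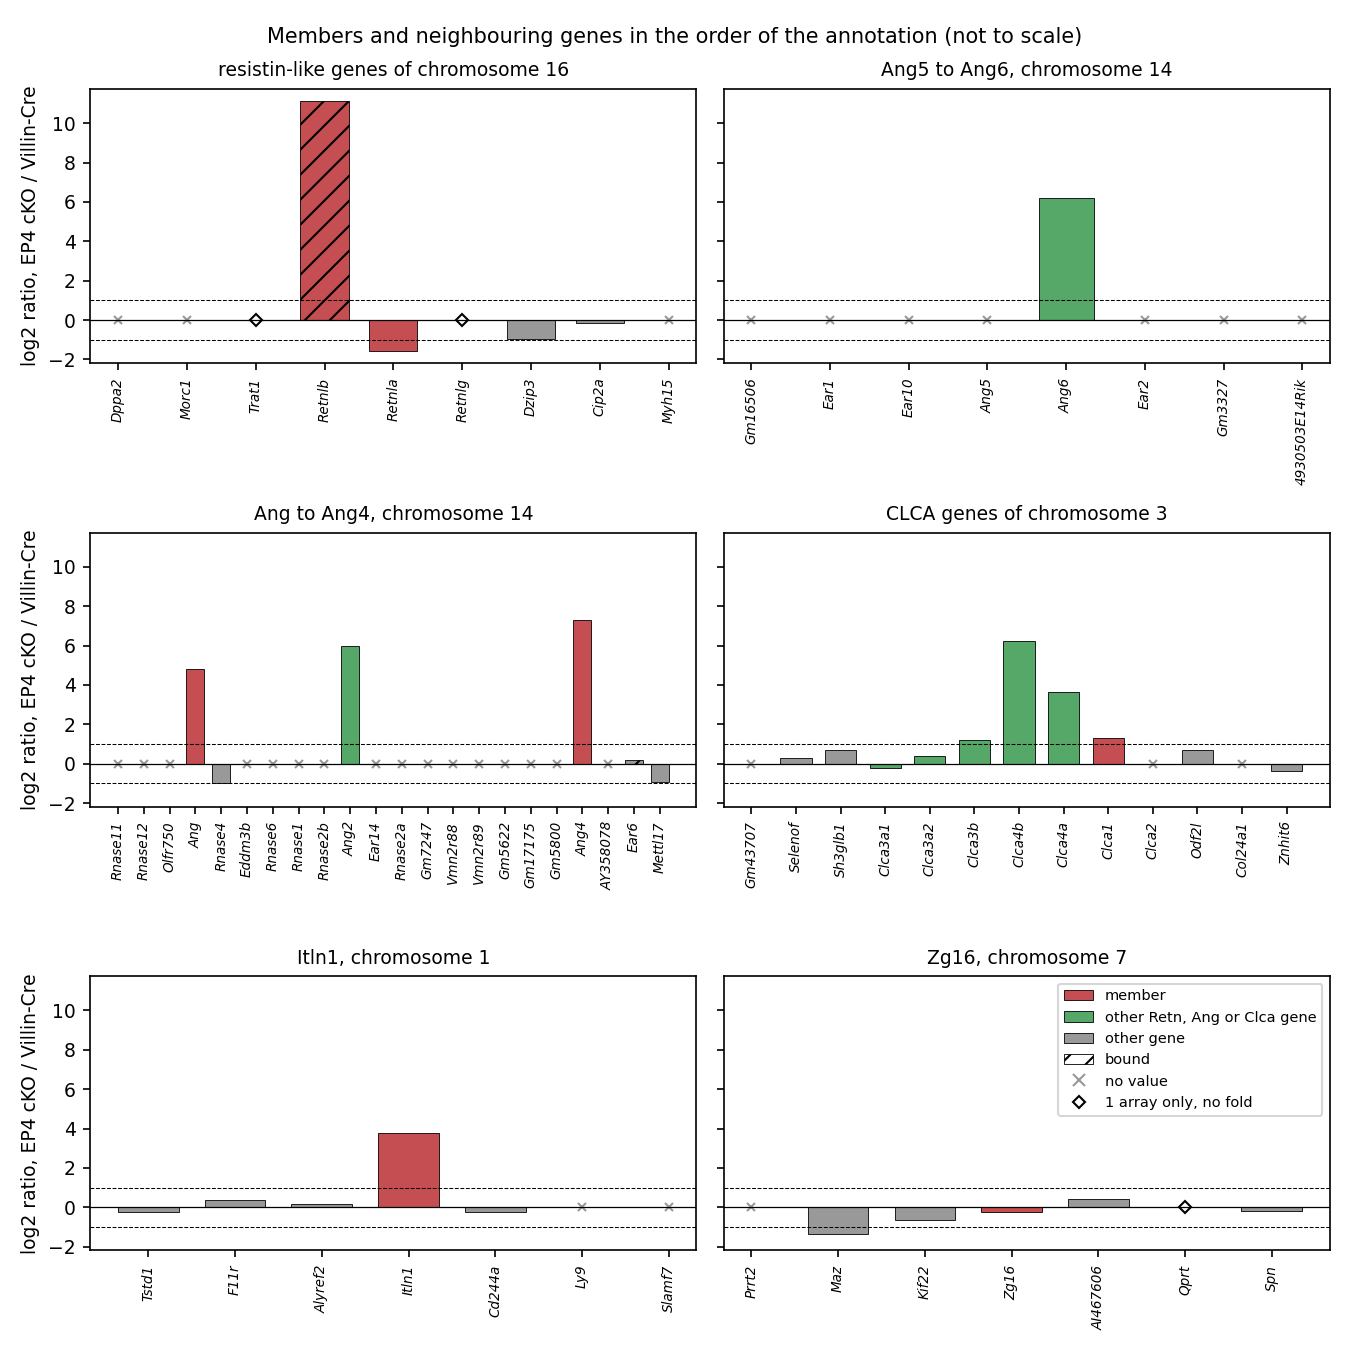
Log2 ratio of EP4 cKO over Villin-Cre for the genes of the set (red), other Retn, Ang or Clca genes (green) and other protein-coding genes (grey) in the order of the annotation in 6 regions, not to scale. Hatching marks a bound, a cross a gene with no probe or not well above background on either array, a diamond a gene well above background on 1 array with no fold above 1, and dashed lines 2-fold. Bars above 2-fold occur at 10 Retn, Ang, Itln and Clca genes, among them members of the set, which were chosen with their ratios in view. None occur at the 19 other genes with a value.

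Genes of the type 2 response were looked up because they act above several of the 8 genes. Of 23 cytokine, receptor and signal genes, 16 had a value, with 3 higher and 1 lower past 2-fold (median log2 ratio 0.31). The number higher was 12 with the E1A spike-in spots, 7 after loess and 5 without the floor, so it depended on the scaling. With the E1A spike-in spots 5498 of all 14676 genes were higher, so counts under that scaling, here and in the lists below, are not specific to a list. The cytokines Il4, Il5, Il9, Il13, Il25 and Tslp and the receptor Il9r were not well above background on either array. Il33, an alarm cytokine of stroma and epithelium, had 608 and 120 (log2 ratio -2.34, from -2.34 to -1.10 over the settings). Il4ra, the shared receptor chain for interleukins 4 and 13, had 571 and 1615 (2.83-fold higher). Crlf2, a receptor chain for Tslp, had a log2 ratio of 1.25 with its brighter probe and 0.66 with the other, so that 2 genes were higher with the mean of all probes. Socs1, an inhibitor of Janus kinases that interferons also raise, had a log2 ratio of 2.32. Stat6 (-0.04), Il13ra1 (-0.05) and Il13ra2 (0.34) lay within 2-fold, named after their values were seen.

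Of 19 genes of type 2 macrophages, eosinophils and their chemokines, 7 had a value, and 6 of these were higher with the E1A spike-in spots, 4 after loess and 2 as scaled here. Ccl8, a chemokine of macrophages (a bound of 3.49, and 2.56 at its lowest over the settings), and Mrc1, the mannose receptor (a bound of 2.11, and 1.42 at its lowest), were more than 2-fold higher, and Il4i1, an amino acid oxidase of activated myeloid and lymphoid cells, was lower (-1.12). The value of Il4i1 came within 2-fold under each other scaling, up to -0.11 with the E1A spike-in spots. Arg1 and Chil3, which with Retnla mark macrophages in type 2 responses, and Epx, Prg2 and Ccr3 of eosinophils were among the 12 genes too dim on both arrays. The part of a type 2 response in the levels of Retnlb, Itln1 and Clca1 was not tested.

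Markers of the cells that could carry these RNAs are given beside them. Of the 35 goblet cell genes, 34 were measured on both arrays and B3gnt6 had a bound. Of the 35, 2 were more than 2-fold higher, Clca1 and Capn9 (log2 ratio 1.14), and 0 were lower, with a median of 0.13. With scaling to the E1A spike-in spots 20 were higher, beside 5498 of all 14676 genes. The summed normalized signal of the 35 was 2951770 on the Villin-Cre-labelled array and 3374260 on the EP4 cKO-labelled array. Without Clca1 and Zg16, that of the other 33 was 2350300 and 2379720. Such sums follow the brightest probes of a list. The mucin Muc2 had a log2 ratio of -0.06, Spdef and Atoh1, factors of the secretory lineage, 0.09 and -0.13, Tff3 -0.75, Agr2 0.35 and Fcgbp 0.64, named after their values were seen. The part of the number of goblet cells in the levels of Retnlb, Itln1 and Clca1 was not tested.

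Paneth cell markers are of interest for Ang4 and Itln1, which are on that list. Of the other 12 markers, 5 had a value, of which Defa24, a defensin, was more than 2-fold higher (31.6, not well above background, against 1148, a bound of 3.20, and 2.17 at its lowest over the settings) and 0 were lower. Lyz1, the lysozyme of Paneth cells, had 1668 and 1150 (log2 ratio -0.54), and Mmp7 had no fold above 1 (a log2 ratio of 1.21 without the floor). The summed signal of these other markers was 505052 on the Villin-Cre-labelled array and 630433 on the EP4 cKO-labelled array, most of it from Mptx2 (471361 and 605583). Of the 19 genes of gut position, 12 had a value, with 1 higher and 1 lower, against 8 and 0 with the E1A spike-in spots. Fabp6 of the ileum was 3.32-fold higher, Onecut2 of the upper gut at least 2.66-fold lower (log2 ratio -0.40 with the E1A spike-in spots), and Sis, Lct, Apoa1 and Apoa4 of the small intestine were not well above background on either array. Alpi, an alkaline phosphatase of small intestinal enterocytes, read 28.1, not well above background, on the Villin-Cre-labelled array and 153, well above it, on the other (a bound of 0.28, and 2.44 without the floor), and was named after its values were seen. Hoxb13 of the colon had a log2 ratio of -0.14, named after its value was seen. The part of Paneth-type cells or of tissue from the ileum in the levels of Ang4 and Itln1 was not tested.

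Macrophage and monocyte markers had 11 of 15 genes with a value, 3 of them higher (Ly6c2 with a log2 ratio of 2.50, Mrc1 and Cx3cr1 with bounds of 2.11 and 1.03, the latter 0.59 at its lowest over the settings) and 0 lower, beside the lower level of Retnla. The number higher was 8 with the E1A spike-in spots, 5 with the 75th percentile, 4 after loess and 2 with normexp and quantile normalization. Csf1r, the receptor for the growth factor of macrophages, stood on the other side within 2-fold, with 4874 and 2817 (log2 ratio -0.79, and 0.22 with the E1A spike-in spots), named after its values were seen. Their summed signal was 130176 and 462326, most of it from Ly6c2 (65616 and 372306), and Adgre1, Cd163, Lyz2 and Ccr2 were not well above background on either array. Neutrophil markers had 5 of 12 genes with a value, of which S100a8 (at least 2.83-fold, with a log2 ratio of 1.04 at its lowest over the settings) and S100a9 (2.39-fold) were higher. Their summed signal was 109490 and 85087, nearly all of it from Csf3r (106452 and 81629). Among the adipocyte markers, which bear on Retn, Adipoq, Cfd, Plin1 and Fabp4 were not well above background on either array, while Cidec was at least 36.6-fold higher (with a log2 ratio of 4.08 at its lowest over the settings) and Lpl at least 7.55-fold lower (with a log2 ratio of up to -1.47). The summed signal of the adipocyte markers was 13259 and 21889, most of it from Pparg (11399 and 16140). Of 10 pancreatic enzymes, Cela1 was lower (-1.02, and within 2-fold under each other scaling, up to -0.01) and 8 were not well above background on any array. The epithelium of the colon was present on both arrays, with 18 of 18 markers well above background, of which Krt20 (146575 and 510711) and Aqp8 (236302 and 473610) were more than 2-fold higher and 0 lower. Aqp8 lay just past 2-fold, 1 marker was higher at a 3-fold threshold, and 11 were higher than 2-fold with the E1A spike-in spots.

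**Figure D4:**
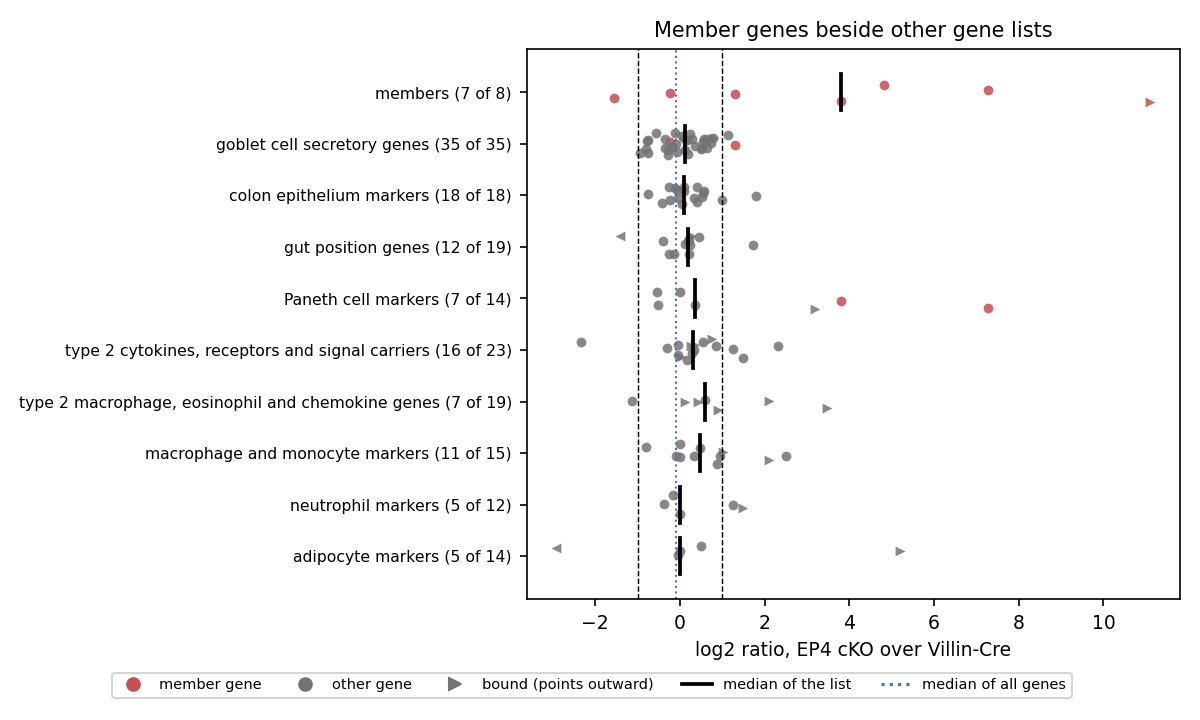
Log2 ratio of EP4 cKO over Villin-Cre of each gene with a value in the set and in 9 other lists, with the number of genes with a value of those listed. Triangles are bounds, black bars list medians, the dotted line the median of all genes (-0.10) and dashed lines 2-fold. The goblet cell and colon epithelium lists are narrow around medians of 0.13 and 0.10, while the set spans -1.55 to 11.10.

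The order of the log2 ratios within the set was Retnlb, Ang4, Ang, Itln1, Clca1, Zg16 and Retnla, and it was the same under each of the 7 ways of scaling and treating dim probes. Scaling to the E1A spike-in spots raised the median log2 ratio of probes measured on both arrays by 1.01, and the other scalings raised it by 0.13 to 0.18. Within 1 setting each array has 1 factor, apart from loess and quantile normalization, so the differences between genes are kept. The call that depended on the scaling was that of Retnla.

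**Figure D5:**
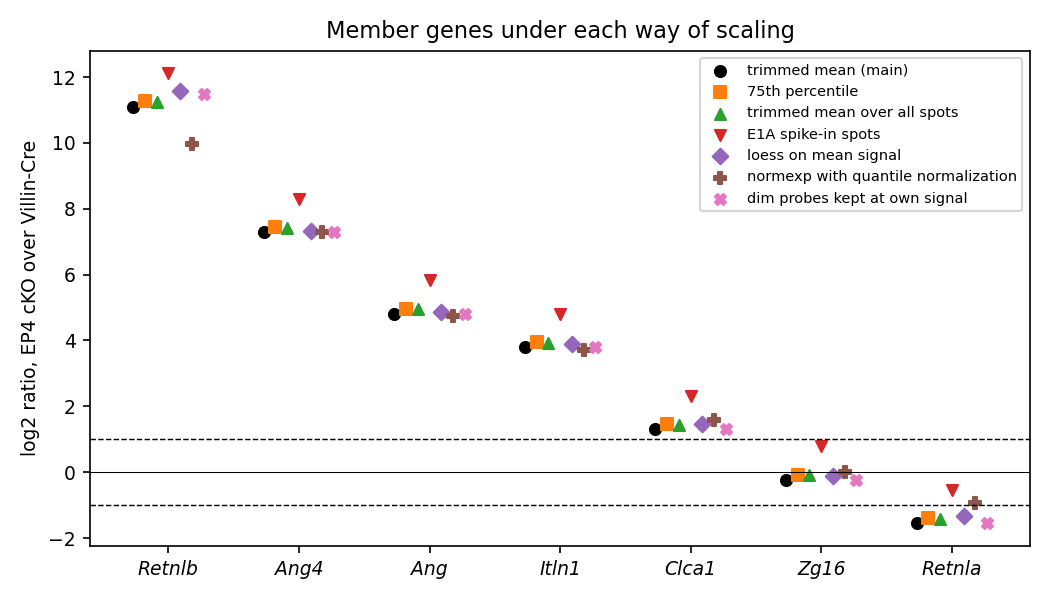
Log2 ratio of EP4 cKO over Villin-Cre of the 7 genes with a value under 7 ways of scaling the arrays or treating dim probes, 1 marker each, with dashed lines at 2-fold. Retnlb, Ang4, Ang, Itln1 and Clca1 stay above 2-fold under each, Zg16 stays within 2-fold, and Retnla moves inside it with the E1A spike-in spots (-0.53) and with normexp and quantile normalization (-0.94).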

How the data were processed

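Whole colon RNA was measured on 2 Agilent mouse expression arrays of 1 colour (Cy3), 1 for Villin-Cre and 1 for EP4 cKO mice, and each array was assigned to its genotype by its labels. The authors deposited scanner output (Feature Extraction 12.0.3.1 per the file headers, whereas the submitters' processing notes name 11.5.1.1). The deposited intensity used here is the processed signal, already background-subtracted by the software. The scaling that the authors' methods describe, which takes 2% of the probes off each end and sets the trimmed mean to 2500, is not part of these deposited intensities and was repeated here, with factors of 3.45 (Villin-Cre) and 2.68 (EP4 cKO). Each array held 62976 spots. Control spots and outlier spots (147 and 126) were left out, and repeated spots of a probe were averaged. Outlier, saturation and above-background flags are those deposited. For 278 probes with 10 spots each, the SD of the log2 ratio over spots had a median of 0.035, which does not cover the spread between mice.

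Probes were named by matching RefSeq accessions to a table of the assembly GRCm38.p6, and 32989 of 56593 probes (58.3%) matched. The grid of the arrays refers to another assembly, so only names, gene order and the promoter windows of RefSeq were taken from the table. No promoter entry was found for Retnlb, Clca1, Clca4a, Zg16 and Ang2. Windows were compared by local alignment.

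The genes, the lists and the naming rule were chosen with earlier results of these data known. Named are all 8 genes with every probe, each gene of the 3 family lists well above background on at least 1 array, up to 4 rises and 4 falls past 2-fold of each other list, and Ptger4. Neighbouring genes, genes not well above background, list genes within 2-fold and those said to be so were named after their values were seen. With 1 array per genotype no test was run and no sample could be left out. The number of arrays limits the precision. Alternatives were the 75th percentile, a trimmed mean over all spots, the E1A spike-in spots (350 per array), loess (span 0.3), normexp (offset 50) on the median spot signal with quantile normalization, dim probes kept at their own signal, genes well above background on both arrays, the mean of all probes, and 3-fold and 1.5-fold thresholds. The steps were tested on simulated data. The values of some single genes are left out of the text. The tools were limma 3.58.1 in R 4.3.3 and, in Python 3.11.15, matplotlib 3.10.9, statsmodels 0.14.6, pandas 2.3.3 and numpy 2.4.6.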

Additional observations from a re-analysis of the deposited data

How the results depend on the processing

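The number of the 8 genes more than 2-fold higher on the EP4 cKO-labelled array was 5 under each scaling and without the floor for dim probes, 4 at a 3-fold threshold (without Clca1) and 4 for genes measured on both arrays (without Retnlb). The number more than 2-fold lower was 1 (Retnla), and it was 0 with the E1A spike-in spots, 0 after normexp with quantile normalization and 0 at a 3-fold threshold. Of the log2 ratios of the 7 genes with a value under the other scalings and treatments of dim probes, 40 kept their side of 2-fold, and 2, both of Retnla, came within 2-fold (-0.53 and -0.94). The sign turned for Zg16 alone, with the E1A spike-in spots (0.79). Over all genes, 717 were higher and 1171 lower, against 942 and 921 with the 75th percentile, 906 and 958 with the trimmed mean over all spots, 5498 and 347 with the E1A spike-in spots, 1144 and 728 after loess, and 615 and 391 after normexp with quantile normalization. Without the floor they were 1124 and 1173, for genes measured on both arrays 519 and 802, at 3-fold 325 and 548, and at 1.5-fold 1447 and 2740. Of the list medians given, that of the type 2 cytokine and receptor genes (0.31) was 0.81 after loess and 1.32 with the E1A spike-in spots, that of the intelectin, CLCA and ZG16 genes (1.26) was 2.27 with the latter, that of the goblet cell genes (0.13) was 1.14, and that of the colon epithelium markers (0.10) was 1.11. The E1A spots had a mean signal of 906 on the Villin-Cre-labelled array and 577 on the other, and why they differ was not tested. Signal over background limits Retnlb to a bound and leaves Retn without a fold. No paired analysis was possible because each genotype had 1 array.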
